A study of Xenopus tropicalis with 9 samples.

Results

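Transcripts of respiratory complex I were quantified in 9 mRNA sequencing libraries of 7 tissues from the adult western clawed frog, Xenopus tropicalis. The genes described are every row of the deposited gene tables whose symbol starts with nduf, the prefix of the nuclear genes of the complex and its assembly factors, and the 7 rows named ND1, ND2, ND3, ND4, ND4L, ND5 and ND6, which are encoded in mitochondrial DNA. They number 51 of 30330 gene rows, 44 of them nuclear and 7 mitochondrial. The adult female tissues were head, heart, lung, ovary, intestine and GI tract, and the adult male tissues were head, heart and testes. Head and heart thus have 2 libraries each, 1 per sex, and every other tissue has 1 library and no replicate check. Where levels are listed by library, each pair is given female first. The labels give no strain, genotype, treatment or number of animals per library, and nothing in them says that samples came from separate animals. All p-values therefore measure only the spread between these samples.

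Complex I (NADH:ubiquinone oxidoreductase) is the entry point of the respiratory chain. It takes electrons from NADH, passes them through a peripheral arm to ubiquinone, and pumps protons through a membrane arm across the inner mitochondrial membrane. The enzyme is built from proteins of both genomes: the nuclear core subunits make the electron path of the peripheral arm, the ND proteins make the membrane arm, and accessory subunits and assembly factors, all nuclear, surround and build it. Heart muscle is rich in mitochondria. Vertebrate oocytes accumulate large numbers of mitochondria as they grow.

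The 44 nuclear rows comprise 7 core subunits, 29 accessory subunits, 7 assembly factors (ndufaf1 to ndufaf7) and ndufa4. The product of ndufa4 is now assigned to cytochrome c oxidase, although its symbol keeps the older name. The gene ndufb11 of the B series, the assembly factor ndufaf8 and the ndufa4 relatives ndufa4l and ndufa4l2 were not found by symbol and were not analysed here. Every row had a count above 0 in every library. At 1 TPM (transcripts per 1000000, a level per transcript length) or more, all 51 were present in 7 of the libraries, with ND4L below that level in ovary and ndufaf5 below it in intestine.

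Library totals ran from 27628254 counts in ovary to 35044545 in GI tract. Markers of the labelled tissue were found in each library and summed to between 885 TPM (neurons, female head) and 78261 TPM (cardiac muscle, male heart). In the heads the 10 skeletal muscle markers summed to 11094 TPM (female) and 16491 TPM (male), far above the neuron sums of 885 and 906 TPM. The part of skeletal muscle in the head levels was not tested. Some libraries also held markers of another tissue. The 10 oocyte markers summed to 2115 TPM in ovary, to 2845 TPM in female heart and to 2149 TPM in lung, against 9.50 to 156 TPM in the 6 other libraries. All 10 were above 0 in ovary, female heart and lung, but the sums were made up differently. In ovary velo1 and figla stood at 1298 and 623 TPM, against 336 and 64.8 TPM in female heart and 331 and 86.5 TPM in lung. Every other marker of the list was lower in ovary than in female heart and in lung. Among these, wee2 and mos act in the maturing oocyte and egg. They were at 0.85 and 1.67 TPM in ovary against 481 and 84.8 TPM in female heart. The 6 intestinal epithelium markers, all above 0, summed to 7161 TPM in testes and to 547 TPM in female head, against 5.10 TPM in male head. In testes the 7 spermatid markers found summed to 1296 TPM. In whole-tissue RNA, fewer cells of a type and less RNA per cell cannot be told apart, and this holds for every level below.

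The first comparison set the mitochondrial against the nuclear transcripts within each library. Heart was the tissue in which mitochondrial ND transcripts exceeded the nuclear nduf transcripts most. Ovary was the tissue in which ND transcripts were lowest, while its summed nuclear level was nearly as high as in male heart. The 36 nuclear subunits alone summed to 8527 TPM in ovary and 10044 TPM in male heart. The core subunits did not all follow these sums: ndufs1, ndufs3, ndufs7 and ndufv1 were lowest in ovary, and ndufv2 and ndufs8 highest there. The summed level of the 7 ND genes was 3223 and 3611 TPM in the heads, 9321 and 19462 in the hearts, 2831 in GI tract, 2009 in intestine, 3192 in testes, 1028 in lung and 66.0 in ovary. The summed level of the 44 nuclear genes was 5078 and 4991 TPM in the heads, 5281 and 10789 in the hearts, 2460.3 in GI tract, 2151.5 in intestine, 5422 in testes, 3381 in lung and 9928 in ovary. Male heart thus held 295 times the ND transcript level of ovary, but only 1.09 times its nduf level. Whether the mRNA libraries captured ND and nduf transcripts alike in every tissue was not tested. These ratios and those of ND to nduf below therefore compare levels in the libraries.

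The ratio of the ND sum to the nduf sum was 1.80 in male heart and 1.77 in female heart, 1.15 in GI tract, 0.934 in intestine, 0.724 in male head, 0.635 in female head, 0.589 in testes, 0.304 in lung and 0.0067 in ovary. As tissue means it was 1.78 ± 0.0273 in heart and 0.679 ± 0.0629 in head (SD, n = 2 each), so the gap between the tissues was larger than the spread of either pair. Testes and female head differed by less than the SD of the head pair. The remaining tissues have no spread of their own, and a ratio over the members was given no p-value. The 2 hearts had nearly the same ratio at different levels: both sums were higher in the male, by 2.09 times for ND and 2.04 times for nduf, while the heads differed by 1.12 and 0.983 times. Ovary set the range of the ND sum. Across all 9 libraries its highest value was 295 times its lowest, and without ovary 18.9 times, whereas the nduf sum spanned 5.01 times with or without ovary.

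**Figure D1:**
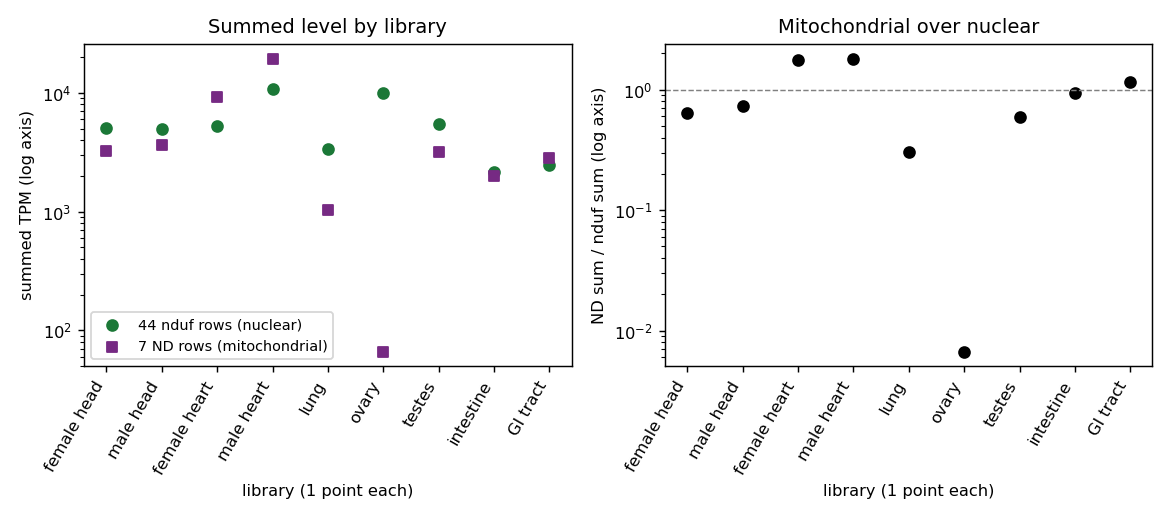
Summed TPM of the 44 nuclear nduf rows (circles) and the 7 ND rows (squares) in each library on a log axis, left, and the ND sum divided by the nduf sum on a log axis, right, with 1 point per library and a dashed line at equal sums. Both hearts sit near 1.8 and ovary, at 0.0067, lies far below the other libraries.

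The share of sequenced counts, which is not divided by transcript length, gave the same contrast. It rests on the same reads as the TPM and is no separate support. Of all counts, the row without a gene name included, the ND genes took 1.22% in the male heart, with a 95% Wilson interval of 1.21 to 1.22, and 0.561% (0.559 to 0.564) in the female one. In ovary they took 1125 counts, or 0.00407% (0.00384 to 0.00432). The nduf genes took 0.507% in male heart and 0.459% in ovary (0.456 to 0.461), and between 0.101% and 0.242% in the 7 other libraries. These intervals cover counting error only.

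The 7 ND subunits form the membrane arm. ND2, ND4 and ND5 are the antiporter-like subunits that carry proton channels, ND1 joins the membrane arm to the ubiquinone site, and ND3, ND4L and ND6 lie between them. All 7 were highest in male heart and lowest in ovary. For ND1 the level was 603 and 789 TPM in the heads, 1759 and 4673 in the hearts, 761 in GI tract, 673 in intestine, 739.9 in testes, 205 in lung and 18.8 in ovary. For ND4, the most abundant of the 7 by mean, it was 1119.7 and 1182 TPM in the heads, 3799 and 6563 in the hearts, 859 in GI tract, 583 in intestine, 1090.3 in testes, 349 in lung and 9.50 in ovary. Both genes stood above the heads in both hearts, and both were at the bottom of the range in ovary. The level of ND2 was 226 and 247 TPM in the heads, 399.7 and 1454 in the hearts, 264 in GI tract, 143 in intestine, 259 in testes, 82.1 in lung and 3.33 in ovary. That of ND5, the lowest of the 7 by mean, was 194 and 242 TPM in the heads, 412 and 972 in the hearts, 169.8 in GI tract, 114 in intestine, 139.8 in testes, 59.2 in lung and 1.66 in ovary. The antiporter-like subunits thus shared 1 order at the extremes, with male heart at the top and lung second from the bottom.

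Among the small subunits ND3 had 301 and 334 TPM in the heads, 509.8 and 1401 in the hearts, 152 in GI tract, 101 in intestine, 227 in testes, 90.5 in lung and 26.9 in ovary. ND4L had 458 and 436 TPM in the heads, 1655 and 2799.9 in the hearts, 375 in GI tract, 261 in intestine, 523 in testes, 154 in lung and 0.54 in ovary. ND6, the ND gene on the opposite strand of the mitochondrial genome, had 321 and 381 TPM in the heads, 787 and 1599 in the hearts, 251 in GI tract, 135 in intestine, 212 in testes, 88.4 in lung and 5.34 in ovary. Each of the 7 was above both heads in both hearts, a pattern that 6.74% of the 19276 genes tested between these tissues showed, although edgeR's test called 0.0% of them. Each was lower in female than in male heart, by 1.69 times for ND4L and up to 3.64 times for ND2. The reading frame of ND4L overlaps that of ND4, and strand-aware counting is not given in the sources used here. Reads within that overlap therefore cannot be assigned to ND4 or ND4L with certainty. Nor can reads of ND6 and of transcripts opposite to it be told apart with certainty.

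The make-up of the ND transcripts in ovary lay outside the range of the 8 other libraries for 4 of the 7 genes. ND4 made up 29.0% to 40.8% of the summed ND level in the 8 others and 14.4% in ovary. ND3 made up 5.03% to 9.34% in the others and 40.7% in ovary, and ND4L made up 12.1% to 17.8% and 0.818%. Of the other 4, ND1, ND2 and ND6 lay inside their range elsewhere and ND5 below it. ND1 held 28.4% in ovary (18.7% to 33.5% in the others), ND2 5.04% (4.29% to 9.31%), ND6 8.09% (6.65% to 10.5%) and ND5 2.51% (4.38% to 6.69%). All of these shares rest on few reads in ovary, from 2 counts for ND4L, 54 for ND6, 80 for ND5 and 84 for ND2 to 436 for ND1. By counts, ND3 took 134 of the 1125 ND counts there, or 11.9% (95% Wilson interval 10.1 to 13.9), against 1.01% to 1.92% elsewhere. ND4L took 2 of 1125, or 0.178% (0.0488 to 0.646), against 1.77% to 2.61%. Its 2 counts have an exact Poisson interval of 0.242 to 7.22 counts and lie below the limit of detection of 3 counts set here. By counts ND1, at 38.8% in ovary (36.0 to 41.6) against 18.5% to 32.5%, also lay above its range elsewhere. ND6 took 54 of 1125, or 4.80% (3.70 to 6.21), against 2.80% to 4.43%, and its interval covers the top of that range.

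**Figure D2:**
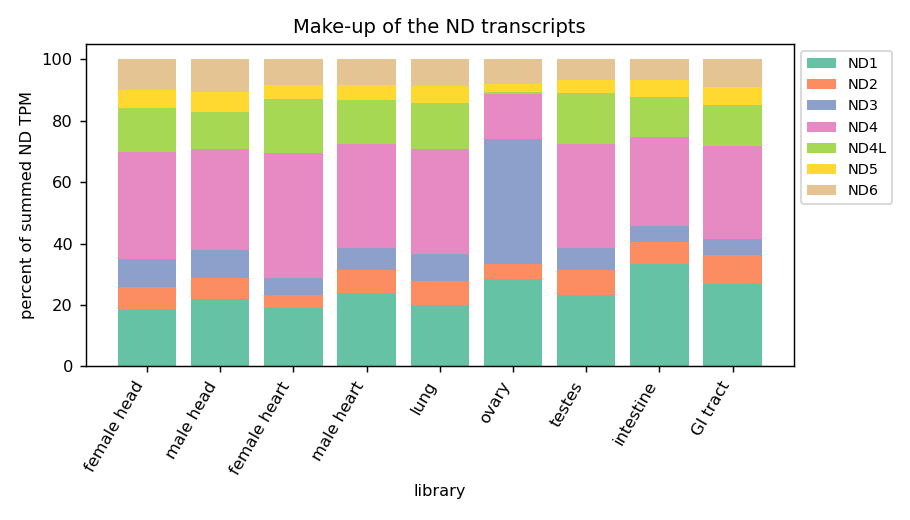
Percent of the summed ND TPM contributed by each of the 7 ND genes, as 1 stacked bar per library. ND3 takes 40.7% of the bar of ovary and at most 9.34% of any other, and ND4L takes 0.818% there and at least 12.1% elsewhere.

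The other 6 protein genes of mitochondrial DNA had, together, more transcripts than the 7 ND genes in every library. Their summed level was 7.88 times the ND sum in male heart and 8.62 times in female heart, 10.2 in testes, 12.2 in GI tract, 14.1 in ovary, 18.3 in female head, 18.8 in lung, 19.2 in male head and 19.8 in intestine. The low level in ovary was therefore not confined to complex I: COX3, a core subunit of cytochrome c oxidase, stood at 271 TPM in ovary against 7016 to 48289.7 TPM elsewhere, and COX1, the catalytic subunit, stood at 72.2 TPM in ovary against 4471 TPM in lung, the next lowest library, and 38787 TPM in male heart.

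The nuclear core subunits of the N module take electrons from NADH. ndufv1 binds NADH and the flavin, and ndufv2 and ndufs1 carry iron-sulfur clusters. The level of ndufv1 was 248 and 282 TPM in the heads, 278 and 639 in the hearts, 52.5 in GI tract, 48.2 in intestine, 269.9 in testes, 128 in lung and 19.0 in ovary. The level of ndufs1 was 92.5 and 101 TPM in the heads, 163 and 303 in the hearts, 45.6 in GI tract, 33.4 in intestine, 56.3 in testes, 82.5 in lung and 19.1 in ovary. Both were highest in male heart and lowest in ovary. For ndufv2 it was 123 and 116 TPM in the heads, 122 and 272 in the hearts, 81.7 in GI tract, 66.8 in intestine, 156 in testes, 87.3 in lung and 405 in ovary, with the highest level in ovary.

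The Q module hands the electrons to ubiquinone, and its subunits ndufs7 and ndufs8 carry iron-sulfur clusters. For ndufs3, a scaffold subunit of the module, the level was 126 and 119 TPM in the heads, 175 and 328 in the hearts, 79.0 in GI tract, 54.4 in intestine, 244 in testes, 109 in lung and 42.3 in ovary. ndufs7 had 193 and 236 TPM in the heads, 164 and 495 in the hearts, 96.6 in GI tract, 103 in intestine, 222 in testes, 72.9 in lung and 70.1 in ovary. ndufs3 and ndufs7 were both highest in male heart and lowest in ovary, although ndufs7 in lung was close to its ovary level. ndufs8 departed from its module and had 68.8 and 73.6 TPM in the heads, 78.7 and 165 in the hearts, 15.8 in GI tract, 16.8 in intestine, 103 in testes, 65.6 in lung and 336 in ovary, with the highest value in ovary.

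Core subunits that are present once each in the enzyme were thus far from equal in ovary RNA. ndufv2 was at 21.4 times the level of ndufv1 in ovary, and at 0.411 to 1.56 times elsewhere. This pair was picked after its values were seen, and the ratio is a description.

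**Figure D3:**
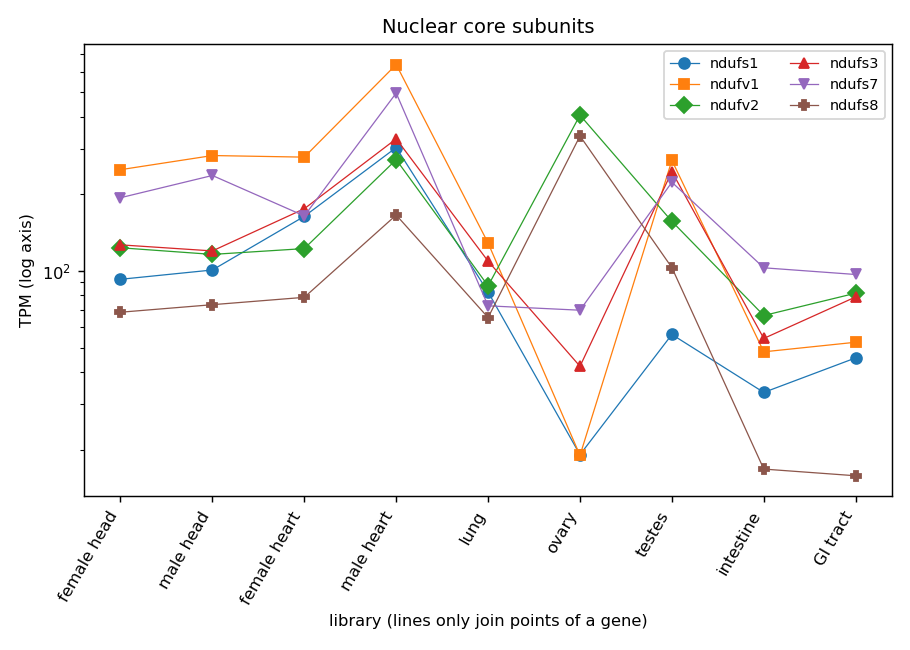
TPM of the nuclear core subunits ndufs1, ndufv1, ndufv2, ndufs3, ndufs7 and ndufs8 in each library on a log axis, with lines joining the points of a gene. In ovary the genes spread from 19.0 TPM (ndufv1) to 405 TPM (ndufv2), and in lung from 65.6 to 128 TPM. In GI tract they spread from 15.8 TPM (ndufs8) to 96.6 TPM (ndufs7), and in intestine from 16.8 to 103 TPM (the same genes).

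The accessory subunits were mostly highest in ovary or male heart. Of the 29, 16 had their highest level in ovary, 12 in male heart and 1, ndufb10, in testes. Their lowest level was in intestine for 19, in GI tract for 5, in ovary for 3 and in lung for 2. The shares of all genes with their highest or lowest level in each library are not given here. Counts of members at such extremes, those of the ND genes and of all nuclear rows included, are therefore descriptions only. In the A series of 13, the most abundant by mean were ndufa6 and ndufa9 and the least abundant ndufa2 and ndufa3. ndufa6 had 394 and 321 TPM in the heads, 187 and 405 in the hearts, 144 in GI tract, 98.8 in intestine, 425 in testes, 255 in lung and 766 in ovary. ndufa9 had 338 and 262 TPM in the heads, 321 and 606 in the hearts, 109 in GI tract, 105 in intestine, 349.7 in testes, 171 in lung and 215 in ovary. Abundant in both, the transcripts differed in ovary, where ndufa6 was highest of all libraries and ndufa9 ranked 6 of 9. ndufa3 had 53.9 and 34.7 TPM in the heads, 34.3 and 81.5 in the hearts, 24.99 in GI tract, 11.9 in intestine, 40.8 in testes, 34.1 in lung and 110.3 in ovary. ndufa2 had 30.6 and 37.5 TPM in the heads, 20.9 and 58.6 in the hearts, 9.81 in GI tract, 10.2 in intestine, 36.6 in testes, 27.1 in lung and 251 in ovary, and its ovary level was 8.70 times the median of the others.

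Other A series members with high ovary levels were ndufa13, also known as GRIM-19, and ndufa12, a paralog of the assembly factor ndufaf2. ndufa13 had 147 and 127 TPM in the heads, 85.5 and 195 in the hearts, 52.8 in GI tract, 48.5 in intestine, 231 in testes, 96.9 in lung and 796 in ovary. ndufa12 had 51.5 and 63.3 TPM in the heads, 64.0 and 277 in the hearts, 27.1 in GI tract, 18.1 in intestine, 85.4 in testes, 50.5 in lung and 362 in ovary. For ndufa13 ovary stood alone, whereas ndufa12 was also high in male heart. ndufab1, the mitochondrial acyl carrier protein, was highest in male heart, with 473 TPM, and second in ovary, with 302 TPM.

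In the B series of 10, whose proteins belong to the membrane arm, ndufb9 and ndufb5 were the most abundant by mean and ndufb2 and ndufb3 the least. ndufb9 had 923 and 1078 TPM in the heads, 668 and 1588 in the hearts, 225 in GI tract, 326 in intestine, 552 in testes, 465 in lung and 581 in ovary. ndufb5 had 66.8 and 61.3 TPM in the heads, 119 and 182 in the hearts, 37.5 in GI tract, 33.5 in intestine, 112 in testes, 67.3 in lung and 571 in ovary. The first was highest in male heart and the second in ovary. ndufb2 had 21.9 and 22.8 TPM in the heads, 17.0 and 39.7 in the hearts, 12.3 in GI tract, 9.54 in intestine, 16.1 in testes, 15.0 in lung and 35.04 in ovary. ndufb3 had 17.8 and 16.9 TPM in the heads, 12.6 and 34.5 in the hearts, 14.6 in GI tract, 9.40 in intestine, 13.2 in testes, 24.4 in lung and 36.3 in ovary. The order of libraries by TPM and by counts scaled for depth differed most for ndufb3 among the 51 genes (Spearman's rho 0.633 over 9 libraries), and its relative length (counts over TPM) ran from 0.232 in lung to 0.679 in ovary. ndufb1 had 8.63 and 7.97 TPM in the heads, 10.7 and 11.1 in the hearts, 6.16 in GI tract, 4.82 in intestine, 30.3 in testes, 14.1 in lung and 157 in ovary, and stood in ovary at 16.3 times the median of the others. ndufb10 and ndufb4 were the members of the series lowest in ovary, at 0.259 and 0.656 times that median.

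Among the 6 accessory subunits of the C, S and V series, ndufs5 and ndufs4 were the most abundant and ndufc1 and ndufv3 the least. ndufs5 had 182 and 159 TPM in the heads, 105 and 326 in the hearts, 119 in GI tract, 64.8 in intestine, 183 in testes, 105 in lung and 708 in ovary. ndufs4, an accessory subunit near the N module, had 77.3 and 84.6 TPM in the heads, 149 and 492 in the hearts, 24.2 in GI tract, 24.7 in intestine, 109 in testes, 51.7 in lung and 228 in ovary. Their highest libraries were ovary and male heart, respectively. ndufs6, which binds zinc, had 76.8 and 73.5 TPM in the heads, 65.7 and 194 in the hearts, 18.6 in GI tract, 14.6 in intestine, 29.9 in testes, 24.8 in lung and 573 in ovary, and its ovary level was 12.0 times the median of the others. ndufc1 had 26.7 and 23.0 TPM in the heads, 16.8 and 44.7 in the hearts, 7.74 in GI tract, 8.23 in intestine, 36.0 in testes, 17.5 in lung and 97.0 in ovary. ndufv3 had 22.8 and 20.1 TPM in the heads, 8.91 and 37.0 in the hearts, 11.0 in GI tract, 8.84 in intestine, 16.6 in testes, 21.1 in lung and 4.95 in ovary, with its lowest value in ovary. ndufa4 had 329 and 261 TPM in the heads, 443 and 596 in the hearts, 229 in GI tract, 159 in intestine, 175 in testes, 184 in lung and 801 in ovary, again highest in ovary.

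The assembly factors had lower levels than most subunits, and their order of libraries was another. The most abundant by mean were ndufaf4 and ndufaf7 and the least ndufaf5 and ndufaf2. ndufaf4 had 24.8 and 28.5 TPM in the heads, 65.4 and 52.5 in the hearts, 20.4 in GI tract, 26.8 in intestine, 18.4 in testes, 75.4 in lung and 200.2 in ovary. ndufaf7, a methyltransferase in human cells, had 9.69 and 9.19 TPM in the heads, 38.1 and 9.85 in the hearts, 5.17 in GI tract, 5.42 in intestine, 15.4 in testes, 43.0 in lung and 196 in ovary. In both, ovary was highest and female heart and lung lay above male heart. ndufaf2 had 10.5 and 13.9 TPM in the heads, 5.63 and 16.5 in the hearts, 2.83 in GI tract, 6.22 in intestine, 19.0 in testes, 7.69 in lung and 54.2 in ovary. ndufaf5, which hydroxylates ndufs7 in human cells, had 3.94 and 4.65 TPM in the heads, 9.66 and 6.87 in the hearts, 1.77 in GI tract, 0.94 in intestine, 9.30 in testes, 11.4 in lung and 11.1 in ovary. ndufaf3 and ndufaf5 were highest in lung and the 5 others in ovary.

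All 36 nuclear subunits were higher in male than in female heart by TPM, by a median of 2.29 times, where 45.2% of the genes tested between head and heart were. Of the 7 assembly factors 2 were, with a median of 0.802 times, beside a median of 0.916 times over 16964 of the genes tested. With 1 library of each sex, the difference between the classes was not tested. ndufaf3 stood at 62.7 TPM in female heart and 68.8 TPM in lung against 15.1 TPM in male heart. The female heart and lung were also the libraries in which the oocyte markers summed to 2845 and 2149 TPM, against 9.50 TPM in male heart. The part of oocyte transcripts in the assembly factor levels was not tested. Sex and library cannot be told apart in heart.

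**Figure D4:**
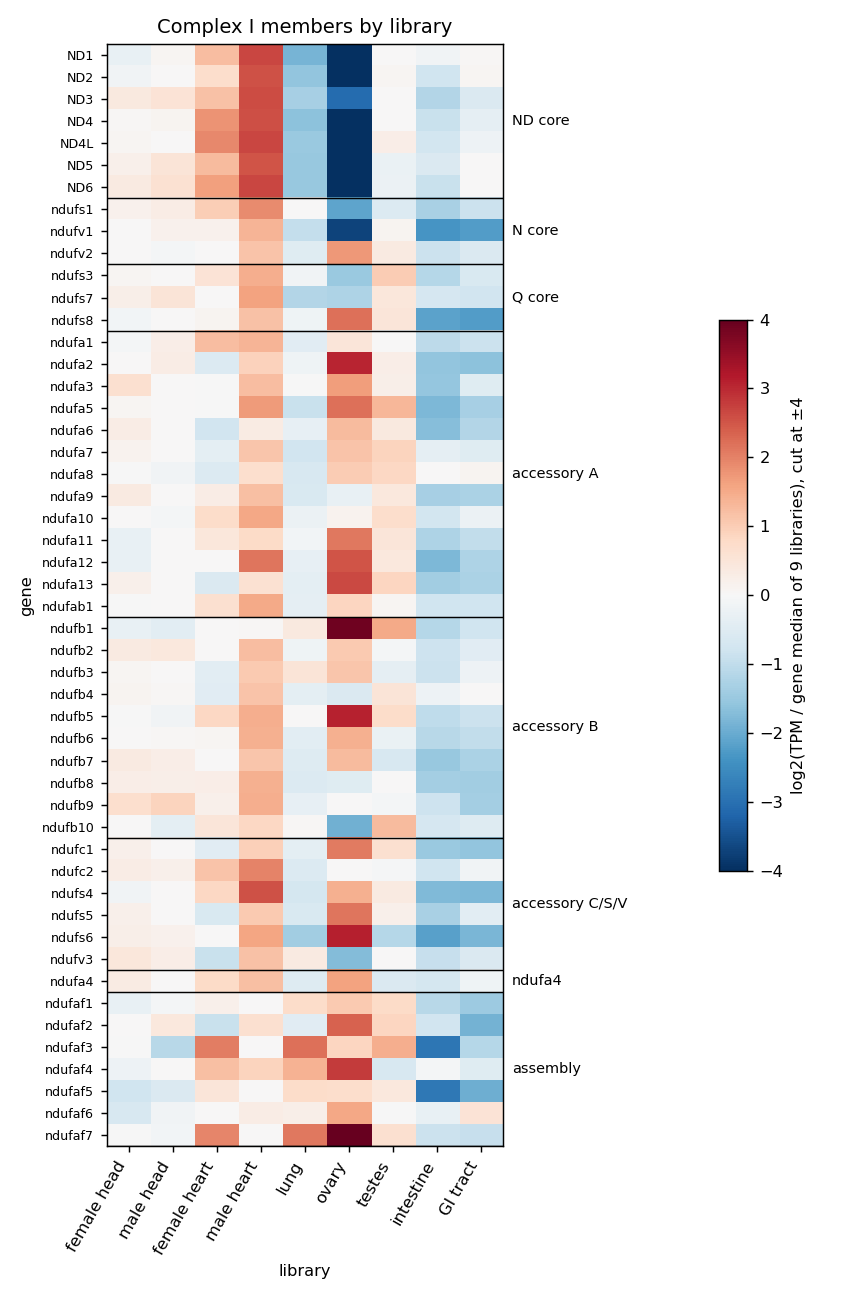
log2 of TPM over the gene's median of the 9 libraries, for each gene named at a row (by class) in each library (columns), with the colour scale cut at plus and minus 4. The 7 ND rows are high in the hearts and low in ovary, while 24 nuclear rows are highest in ovary.

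The second comparison asked how the ovary library differed from the other tissues, with edgeR's quasi-likelihood test in 1 fit of all 9 libraries, whose spread was estimated on the pairs of heads and hearts and is assumed to hold for tissues with 1 library. The test called many nuclear genes higher in ovary and 2 ND genes lower, while all 7 ND genes had negative log2 fold changes. At a Benjamini-Hochberg adjusted p under 0.05, 24 of 44 nuclear members were higher in ovary, where 8.16% of 23090 genes were called higher. This test called none of the 44 lower, with 1 of them lower at an unadjusted p under 0.05, where 22.4% of genes were. It called 2 of 7 ND genes lower, against 4.41% of all genes. The median log2 fold change was 2.79 over the nuclear members, -4.76 over the ND members and -1.87 over all genes tested. The median of all genes moved to -1.70 with DESeq2's size factors and to -0.79 with limma on log2(TPM + 1). The zero of these fold changes thus depended on the scaling. The size of the nuclear difference also depended on the scale: with limma on log2(TPM + 1) the median was 1.33 over the nuclear and -5.73 over the ND members, and 34 of 44 nuclear members lay above 0, against 38 with edgeR. Of all 23090 genes, 4821 lay above 0 with limma and 7525 with edgeR.

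By role, the genes called higher included 6 of 7 assembly factors. They also included 7 of 13 A series, 4 of 10 B series and 4 of 6 C, S and V series accessory subunits. The rest were ndufa4 and 2 of the 7 nuclear core subunits, ndufv2 and ndufs8. Of all genes, 8.16% were called higher. The largest log2 fold changes were those of ndufs6, 5.42 (SE 0.63, adjusted p = 0.0252), ndufb1, 5.36 (SE 0.49, adjusted p = 0.0240), and ndufaf7, 5.36 (SE 0.62, adjusted p = 0.0253), all p-values being edgeR's with Benjamini-Hochberg adjustment. They were followed by ndufa2 at 4.88, ndufb5 at 4.46, ndufa13 at 4.35, ndufa12 at 4.20, ndufs8 at 4.17, ndufaf2 at 4.09 and ndufaf4 at 4.04. The core subunit ndufv2 had 3.25. All 24 adjusted p-values lay between 0.0240 and 0.0498, so none was far inside the threshold.

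The 2 ND genes called lower were ND4L, with a log2 fold change of -8.20 (SE 1.20, adjusted p = 0.0323), and ND4, with -5.36 (SE 1.12, adjusted p = 0.0498), by edgeR. ND4L had 2 counts in ovary, below the limit of detection of 3 counts set here. Its fitted fold change therefore depends on the prior count and is no bound. ND5, ND2, ND6, ND1 and ND3 had log2 fold changes of -5.29, -4.76, -4.16, -3.92 and -1.56 and did not pass, with adjusted p-values from 0.0537 to 0.279 by edgeR. DESeq2 called 31 nuclear members higher, where 14.2% of genes were, and 1 nuclear and 6 ND members lower, where 23.1% of genes were. limma on log2(TPM + 1) called 5 nuclear members higher, where 3.88% of genes were, and 1 nuclear and 6 ND members lower, where 14.1% were.

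By TPM, the nuclear members lowest in ovary included the core subunits ndufs1, ndufs3, ndufs7 and ndufv1 and the accessory subunits ndufv3, ndufb4 and ndufb10, at 0.0732 (ndufv1) to 0.656 (ndufb4) times the median of the other libraries. On edgeR's scale, where the median of all genes was -1.87, the log2 fold changes of these genes ran from -1.61 for ndufv1 to 0.73 for ndufb4. For ndufb4 and for ndufs7, at 0.40, the direction thus depended on the scale. The 24 members highest in ovary by TPM stood at 2.05 to 20.1 times the median of the others. They were not quite the 24 called: ndufs4, ndufb6 and ndufaf5 were called without being highest there, and ndufa7, ndufa8 and ndufb3 were highest there without being called.

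**Figure D5:**
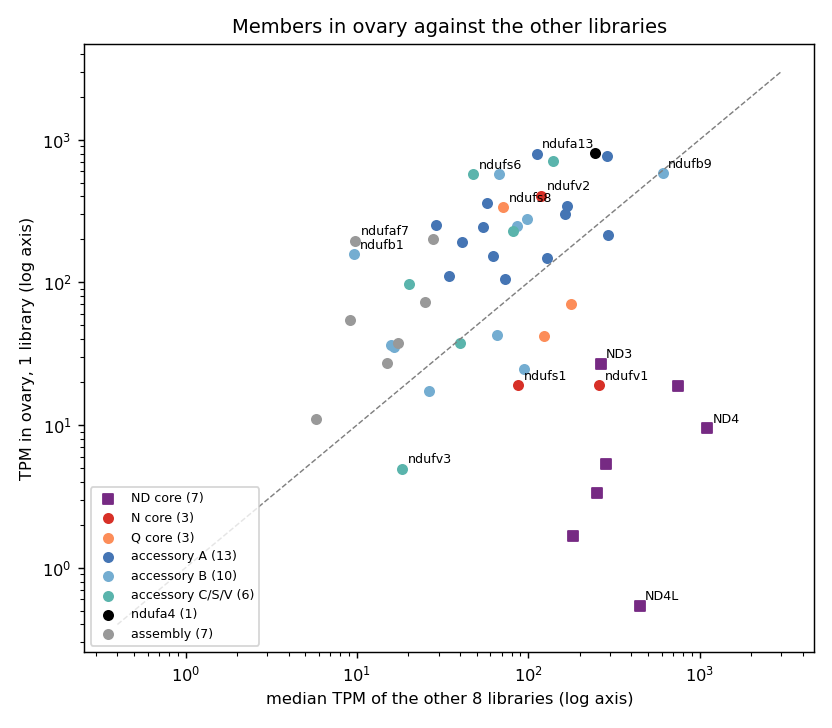
TPM in ovary (1 library) against the median TPM of the 8 other libraries with 1 point per gene, on log axes, coloured by class, with a dashed line of equal levels. The 7 ND genes (squares) and ndufv1 and ndufs1 lie far below the line, and ndufs6, ndufb1 and ndufaf7 far above it.

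The number of calls in the ovary test leaned on single libraries, while the fold changes moved little. The median log2 fold change of the nuclear members was 2.80 without either head, 2.64 without the female heart and 2.89 without the male heart. With a heart dropped, the spread came from the 2 heads alone, and with a head dropped, from the 2 hearts alone. With the female heart and lung left out together, an alternative chosen after seeing the data, edgeR called 34 nuclear members higher, where 22.1% of genes were, and 3 nuclear and 7 ND members lower, where 34.9% of genes were. The count of called members was 15 with either head dropped, where 10.1% (female head) and 9.94% (male head) of genes were called. With either heart dropped it was 45, where 55.1% (female heart) and 52.1% (male heart) of genes were called. Transcripts assigned a short length were on the whole higher in ovary: Spearman's rho between the relative length of a member and its ratio of ovary to the other libraries was -0.365 over the 44 nuclear members and -0.427 over 5875 genes with at least 100 counts in every library. The part of length in the ovary pattern was not tested further.

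Across the nuclear members, ovary had an order of levels of its own. Spearman's rho of the 44 levels was 0.986 between the heads, 0.975 between intestine and GI tract and 0.916 between the hearts, and 0.337 to 0.461 between ovary and each other library. These are correlations across genes, given as descriptions. Over the 9 libraries, the correlation of a nuclear member with the ND sum had a median rho of 0.233, with 34 of 44 above 0. Over the 8 libraries without ovary the median was 0.702, with 44 of 44 above 0. The values of a library share its depth and its total of 1000000 TPM.

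The third comparison asked how head and heart differed. Every one of the 51 genes had a lower fitted level in head than in heart by edgeR and DESeq2, and 47 of 51 did by limma on log2(TPM + 1) and 45 of 51 by edgeR without the male heart. Of all 19276 genes tested, 10062 were lower in head by edgeR, 10282 by DESeq2 and 5572 by limma. Without the male heart 8827 of 20784 genes were. None passed edgeR's test, which called 0.0% of the genes. At an unadjusted p under 0.05 there were 14 nuclear and 7 ND members, against 24.2% of all genes. The median log2 fold change, head minus heart, was -1.62 over the nuclear members, -2.87 over the ND members and -0.10 over all genes. With limma on log2(TPM + 1) the nuclear median was -0.60 where the median of all genes was 0.57. The 3 largest differences were those of ND4L, at -3.19 (SE 0.67, adjusted p = 0.0766), ND1, at -3.09 (SE 0.86, adjusted p = 0.120), and ND4, at -3.02 (SE 0.75, adjusted p = 0.0946), by edgeR. Among nuclear members the largest was ndufs4, at -2.80 (SE 0.85, adjusted p = 0.140) by edgeR. Heart held 321 ± 243 TPM of ndufs4 against 81.0 ± 5.13 in head (SD, n = 2 each).

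By TPM, the level in both hearts exceeded that in both heads for 7 of 7 ND genes and for 23 of 44 nuclear genes, against 6.74% of the genes tested. The heart mean exceeded the head mean for 42 of 44 nuclear genes, against 33.5% of the genes tested. The 2 exceptions were ndufa6 and ndufaf2. ND1 had 3216 ± 2061 TPM in heart and 696 ± 132 in head, and ND4 had 5181 ± 1954 and 1150.9 ± 44.1 (SD, n = 2 each). For both genes the SD of heart was larger than that of head, and the male heart was the higher of the pair. DESeq2 called 7 nuclear and 7 ND members lower in head, where 3.39% of genes were. edgeR called 45 of 51 without the female heart, against 11.0% of all genes in that direction, and 24 of 51 without the male heart, against 22.1%. In both of these fits heart is 1 library, which is assumed to vary like the 2 heads.

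Heart was also set against the mean of the 6 other tissues. edgeR called none of the 51 (0.0% of 23090 genes), with 14 nuclear and 7 ND members at an unadjusted p under 0.05, where 14.1% of genes were. The median log2 fold change was 1.06 over the nuclear and 3.60 over the ND members, against 0.12 over all genes. The nuclear median rested on the male heart: without it the median was 0.42, with 17 of 44 nuclear members below 0, and without the female heart it was 1.63, with 2 of 44 below 0. Of all genes, 12265 of 22975 lay below 0 without the male heart and 12791 of 23003 without the female heart. The ND median was 2.70 and 4.37 in those fits, with 7 of 7 above 0 in each. The highest were ND4L at 4.40 (SE 0.46, adjusted p = 0.0926) and ND4 at 3.96 (SE 0.51, adjusted p = 0.113), by edgeR, and among nuclear members they included ndufv1, ndufs4 and ndufs1 at 2.50, 2.39 and 2.37. DESeq2 called 4 nuclear and 7 ND members higher, where 5.18% of genes were. edgeR called 3 nuclear and 7 ND members higher without the male heart, where 9.18% of genes were, and 31 nuclear and 7 ND members without the female heart, where 12.7% were. Without the female heart and lung, edgeR called 30 nuclear and 7 ND members higher, where 15.1% were.

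For testes against the other tissues edgeR called none of the 51 (0.0% of genes), and 1 had an unadjusted p under 0.05 (18.0% of genes). That 1 was ndufaf4, at -2.42 (SE 0.70, adjusted p = 0.177) by edgeR. DESeq2 called 0 of the 51 here, where 4.42% of genes were called. The testes library also held 7161 TPM of intestinal epithelium markers, whose part in this was not tested. For female against male in head and heart, with a term for tissue and 1 residual degree of freedom, edgeR called 0 members, where 1.62% of genes were called. None had an unadjusted p under 0.05 by edgeR (5.7% of genes), and DESeq2 called 0, where 2.87% of genes were called.

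Genes that act on complex I under other names were read beside the members. Of 9 further assembly genes, 3 were called higher in ovary by edgeR and none lower, where 8.16% of all genes were called higher and 4.41% lower. Those 3 were tmem186, tmem70 and coa1, with log2 fold changes of 6.42, 6.37 and 6.02. tmem70, the most abundant of the 9, had 10.7 and 10.6 TPM in the heads, 33.7 and 8.87 in the hearts, 10.6 in GI tract, 8.62 in intestine, 16.9 in testes, 46.2 in lung and 501 in ovary. aifm1, an import and assembly factor also known for its role in cell death and second in mean level, had 56.4 and 52.4 TPM in the heads, 67.3 and 90.2 in the hearts, 52.6 in GI tract, 40.7 in intestine, 59.5 in testes, 58.0 in lung and 5.99 in ovary. Both orders differed in ovary, where tmem70 was highest and aifm1 lowest. acad9 and ecsit were picked out after their values were seen, and acad9 had 27.9 and 37.4 TPM in the heads, 61.0 and 156 in the hearts, 13.1 in GI tract, 11.2 in intestine, 34.1 in testes, 35.3 in lung and 0.33 in ovary. In human cells acad9 and ecsit act with ndufaf1, and tmem186 and coa1 join the same assembly complex. acad9 and ecsit did not pass in ovary, with log2 fold changes of -5.09 and -2.85 and adjusted p-values of 0.0571 and 0.0806 by edgeR. Levels of this 1 assembly complex thus ran from 0.33 TPM for acad9 to 250.4 TPM for tmem186 in ovary.

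Among 20 genes of mitochondrial transcription, RNA processing and DNA replication, edgeR called 2 higher in ovary and 1 lower, shares near those of all genes (8.16% and 4.41%), so the counts say nothing particular of the list. The higher were tfb2m, a mitochondrial transcription factor, at 2.83 on the log2 scale and ssbp1, the single-stranded DNA binding protein of mitochondria, at 2.75. The lower was tefm, the elongation factor of mitochondrial transcription, at -5.48, with 0.14 TPM in ovary against 7.28 to 35.5 TPM in the other libraries. The second most abundant, mterf3, had 21.2 TPM in ovary, 138 TPM in female heart, 206 TPM in lung and 15.4 to 26.3 TPM in the others. Of 11 regulators of mitochondrial biogenesis 1 was called, ppargc1a, higher in ovary by 3.52 on the log2 scale, which is also near the 8.16% of all genes. Its TPM did not stand out, with 13.8 in ovary against 14.7 and 15.9 in the female and male hearts and 14.9 in lung. The call on edgeR's scale therefore did not mark a highest level by TPM. The most abundant regulators, yy1 and gabpa, were highest in lung and female heart, the libraries with many oocyte transcripts, whose part in this was not tested: in female heart, lung and ovary, yy1 had 139.9, 156 and 43.5 TPM and gabpa had 152, 141 and 45.4 TPM. Of the other 6 mitochondrial protein genes 1, ATP6, was called lower, at -5.91. Between head and heart edgeR called 0 in each of these lists, where it called 0.0% of all genes, so these counts say nothing particular of the lists.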

How the data were processed

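Total RNA (Qiagen kits) was made into Kapa mRNA libraries, per the labels' protocols. The authors deposited 1 gene table of counts and 1 of TPM for the 9 libraries. The submitters' processing notes name RSEM 1.3 and deepTools without saying what each did. The deposited counts are whole numbers and were taken to be rounded expected counts of RSEM, since 1272 cells held a count of 0 and a TPM above 0. In the authors' TPM table each library totals 1000000. The sources used here do not name an aligner, a genome build or an annotation. No coordinates are printed, no sequence was used here, and a planned search for promoter motifs was not run. The number of sample columns left unused was 0. The row without a gene name, 0.0113% (ovary) to 1.78% (female heart) of counts, stayed out of tests and library sizes. RefSeq's genes (assembly UCB_Xtro_10.0, used for names only) matched 43 of 44 nuclear and 7 of 7 ND symbols. The nuclear symbol without a match was ndufc1, which is among the members called higher in ovary.

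Groups follow the labels for tissue and sex. Counts were tested with edgeR 4.0.16 (TMM factors, quasi-likelihood F test, edgeR's default filter on low counts, Benjamini-Hochberg adjusted p under 0.05 over all genes). Head against heart and female against male used the 4 head and heart libraries. Heart, ovary and testes were each set against the mean of the 6 other tissue means in 1 fit of all 9 libraries, which assumes that a tissue with 1 library varies like the head and heart pairs. SEs came from the F statistic. DESeq2 1.42.0, limma 3.58.1 on log2(TPM + 1) or log2(TPM + 0.1), other size factors, no filter, mitochondrial genes left out of the scaling, sex as a block and libraries left out were alternatives. The tests were checked on counts simulated with known fold changes, with the same mean profile and spread set for every library. That check does not cover scaling or spread between tissues as unlike as these. TPM sums, ratios and correlations are descriptions with no test. The limit of detection was set at 3 counts, which is 0.0856 to 0.109 CPM depending on the library. The 95% Wilson intervals and this limit cover counting error only.

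The genes, the lists and the tests were chosen with earlier results of these data known. Given in every library were, by rule, the ND genes, the nuclear core subunits, ndufa4, the 2 most and 2 least abundant members of each other class by mean TPM, the 5 nuclear members with the largest ratio of highest library to median, and the 10 largest fold changes per direction among called members. 1 nuclear core subunit is not reported singly here and is in the sums and counts only.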

Additional observations from a re-analysis of the deposited data

Results flagged for a closer look

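The summed nduf level differed between the male and female libraries in heart but hardly in head. It was 2.043 times as high in male as in female heart, and 0.9827 times in head. This was picked out because the 2 ratios lay on opposite sides of 1, although that of head was close to 1. The difference was not tested, with 1 library per sex and tissue. Female heart also held 2845 TPM of oocyte markers against 9.50 TPM in male heart, whose part in this was not tested. The row without a gene name, which no comparison uses, took 1.7765% of the counts in female heart, against 0.0113% in ovary and 1.68% in male heart. It was picked out as signal outside the measured genes.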

How the results depend on the processing

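Counts of called members changed with the setting, and so did the share of all genes called, given in brackets. For ovary (26 by edgeR, 12.6%) they were 10 with no filter on low counts (3.98%), 12 with limma on log2(TPM + 1) (18.0%), 15 to 45 with 1 head or heart library left out (9.94% to 55.1%), and 44 without the female heart and lung (57.0%). For head against heart (0) they were 14 with DESeq2 (20.3%), 2 with limma at either pseudocount (20.3% and 19.9%), 1 with sex as the replicate block (14.4%), and 0 to 45 with 1 library left out (2.28% to 50.0%). The gene called with the block was ND4L, at a log2 fold change of -3.09 and an edgeR adjusted p of 0.0304. For heart against the others (0) they were 11 with DESeq2 (10.5%), 4 to 38 with 1 library left out (4 without either head, 38 when the female heart and 10 when the male heart was dropped, and 2.43% to 19.3% of genes), and 37 without the female heart and lung (22.4%). For testes (0) they were 0 to 5 with 1 library left out (4.05% to 19.0%) and 6 without the female heart and lung (21.4%). The causes were not tested. Sex paired the heads and hearts by label only: the female minus male deviations of head and heart correlated at 0.39 over 13396 genes, with 2 pairs. For female against male, no degree of freedom is left once a library is dropped, so no such fit was made.

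The ratio of ND to nduf sums kept ovary lowest and lung next in each summary. In the order female heart, male heart, lung, ovary, testes, intestine and GI tract it was 2.02, 1.94, 0.351, 0.0077, 0.627, 1.05 and 1.32 with nduf subunits only. With medians in place of sums it was 4.50 and 5.37 in the female and male heads and, in the order above, 9.70, 9.16, 1.51, 0.0343, 3.31, 5.56 and 7.45 in the rest. Without ND6 it was 0.572 and 0.647 in the heads and 1.62, 1.66, 0.278, 0.0061, 0.550, 0.871 and 1.05 in the rest. Directions of single genes were checked for 36 members in ovary and for the 14 nuclear core and ND members in head against heart. No called direction turned there under any alternative run. Other genes, and the heart, testes and sex comparisons, were not checked in this way.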
